A study of Mus musculus with 12 samples.

Results

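The genes described are 35 mouse genes of the ATF4 arm of the integrated stress response and of the unfolded protein response of the endoplasmic reticulum (ER), out of 38215 genes in the count table. They were taken by symbol, and each symbol matched 1 row. The rule used no measured value, but the list was chosen with earlier results of these data known. By role they fall into 12 amino acid and one-carbon genes, 11 genes for ATF4, its partner factors and stress effectors, 4 genes for the ER stress sensors and XBP1, and 8 genes for ER chaperones and ER-associated degradation (ERAD). The amino acid genes and the chaperone genes were kept apart throughout. Of the 35 genes, 34 passed the filter on low counts, and Vldlr, a lipoprotein receptor gene known as an ATF4 target, did not, with 0 to 3 reads in each library.

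Polyadenylated RNA was sequenced from RAW264.7 cells, an established macrophage line from BALB/c mice, after siRNA against SF3A1 or a nontargeting control siRNA. SF3A1 is a subunit of the SF3a complex, which the U2 small nuclear ribonucleoprotein needs to recognise the 3′ end of introns. At 24 h after nucleofection the cells received 20 ng/ml lipopolysaccharide (LPS), a bacterial ligand of Toll-like receptor 4, for 4 h, or no LPS. Each siRNA was thus sequenced in the untreated and the LPS-treated state, which gave 4 groups of 3 libraries. Every library came from nucleofected cells carrying some siRNA, so no library shows untransfected cells, and the depletion was partial and measured at 1 time only. The replicates were separate transfections and LPS exposures of 1 cell line, and p-values measure the spread between such repeats.

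Each library held between 12746019 and 41091887 reads assigned to genes. Replicate 1 was the deepest library of every group. It also stood apart from the other replicates, since the chi-square statistic per degree of freedom between its counts and theirs was 39.6 to 118, against 8.85 to 45.4 between replicates 2 and 3. In SF3A1 siRNA without LPS replicate 1, 27.2% of the reads fell on no annotated gene, and in the other 11 libraries the share was 17.75% to 21.56%. The part of depth and of run in the values of replicate 1 was not tested. Levels are given as CPM, read counts scaled to a common library size after TMM normalisation, and a gene was called changed when the Benjamini-Hochberg adjusted p of edgeR's quasi-likelihood test, fitted on the 14983 genes that passed the filter, was 0.1 or lower. In bulk RNA, fewer cells that express a gene and less RNA per cell cannot be told apart.

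Knockdown was visible in every library. Sf3a1 stood at 173, 216 and 185 CPM in replicates 1, 2 and 3 of control siRNA without LPS and at 27.1, 27.5 and 32.1 CPM with SF3A1 siRNA. With LPS the values were 150.0, 194 and 157 CPM and 30.3, 26.7 and 45.0 CPM. The groups did not overlap, and Sf3a1 was left at 15.1% of its control level without LPS (log2 fold change -2.73, SE 0.204, adjusted p = 1.14e-05, edgeR's quasi-likelihood test) and at 20.4% with LPS (-2.30, SE 0.200, adjusted p = 1.47e-05).

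The libraries carried macrophage RNA. The 10 macrophage markers summed to between 9902 and 16520 CPM per library, with Lyz2, which encodes lysozyme, the most abundant marker in every library, and Mrc1 under 1 CPM. The 10 markers of other cell types (T, B, NK, epithelial, endothelial, fibroblast and liver cells) summed to between 0.121 and 1.76 CPM, with Pecam1 the highest single value at 1.54 CPM and Ncr1 and Alb at 0 reads in all libraries. None of those 10 passed the filter. Some macrophage markers differed between the groups, and their part in the results was not tested. The counts below stand beside 33.8% and 38.8% of all tested genes changed by SF3A1 siRNA without and with LPS, 32.1% and 10.7% changed by LPS with control and SF3A1 siRNA, and 3.47% for the interaction, so that the 2 of 10 called without LPS lie below the share of all genes. With SF3A1 siRNA and no LPS, 2 of 10 were higher, Spi1 by 0.59 and Lyz2 by 0.47 on the log2 scale, and with LPS 2 were higher and 3 lower, among them Fcgr1 at -3.203. LPS raised 7 and lowered 1 of the 10 in control cells (median log2 fold change 0.835) and raised 2 and lowered 1 in knockdown cells (median 0.177), and the interaction of siRNA and LPS passed for 1.

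ATF4 is a basic leucine zipper transcription factor whose messenger RNA is translated more when the initiation factor eIF2 is phosphorylated, by PERK at the ER membrane or by other kinases that sense amino acid shortage, heme shortage or double-stranded RNA. It is known to raise genes for amino acid synthesis and uptake, for tRNA charging and for mitochondrial one-carbon metabolism, along with stress effectors such as CHOP and TRIB3. The unfolded protein response runs from the sensors PERK, IRE1 and ATF6, of which IRE1 splices the Xbp1 messenger, and the spliced XBP1 and the cleaved ATF6 raise chaperones and ERAD genes. In macrophages, Toll-like receptor ligands are known to engage IRE1 and XBP1, and Slc7a11 is known as a gene that LPS induces.

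Some promoters of these genes hold a DNA motif of the ATF4 or the ATF6 arm. They are shown because, where found, the motif of the ATF4 arm and that of the ATF6 arm fell in different role groups, with 1 exception. RefSeq promoters on GRCm38.p6, 250 bases before to 50 bases after each gene's start, were matched by symbol for 32 of the 35 genes, all but Aldh1l2, Slc7a5 and Atf6, and were searched on both strands. CARE, the C/EBP-ATF response element that ATF4 binds with C/EBP partners, was searched as TGATGNAA and occurred in 8 of 32 members (25.0%), against 4.51% of 27025 genes. ERSE, the ER stress element that ATF6 binds with NF-Y, was searched as CCAAT, then 9 bases of any kind, then CCACG, and occurred in 3 of 32 members (9.38%), against 0.137% of genes. ERSE-II, searched as ATTGG, then any base, then CCACG, occurred in 1 of 32 (3.12%, against 0.0444%), the cyclic AMP element TGACGTCA in 1 of 32 (3.12%, against 2.03%), and the unfolded protein response element TGACGTGG in 0 of 32 (against 0.714%). The last pair of motifs share their first 6 bases, and a match describes letters only, not binding. By role, CARE lay in a promoter of 3 of 10 amino acid genes and 4 of 11 genes of the ATF4 group. The same held for 0 of 3 sensor genes and 1 of 8 chaperone genes. ERSE lay in a promoter of 3 of 8 chaperone genes and in no other role group.

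The CARE motifs of 5 genes whose levels are described below are printed 5′ to 3′ on the strand of the gene, with the motif in capitals, either as TGATGNAA or as its reverse complement. The windows are at chr6:7693205-7693252, minus strand for Asns, chr11:120643824-120643871, minus strand for Pycr1, chr3:50443652-50443699, minus strand for Slc7a11, chr2:119351029-119351076, plus strand for Chac1 and chr7:126625553-126625600, minus strand for Nupr1. The first base of the motif lies 23, 103, 66, 193 and 110 bases before the RefSeq start, in that order, and the Slc7a11 window holds a second motif in the opposite orientation.
Asns: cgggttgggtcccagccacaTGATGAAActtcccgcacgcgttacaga
Pycr1: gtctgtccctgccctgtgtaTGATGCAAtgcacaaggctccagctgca
Slc7a11: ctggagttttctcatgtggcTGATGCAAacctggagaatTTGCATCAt
Chac1: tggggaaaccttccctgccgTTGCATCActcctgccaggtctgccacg
Nupr1: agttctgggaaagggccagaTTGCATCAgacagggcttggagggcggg

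The chaperone motifs are printed in the same way, ERSE for Hspa5 (chr2:34772005-34772063, plus strand), Hsp90b1 (chr10:86705513-86705571, minus strand, the nearer of 2 motifs to the start) and Calr (chr8:84847055-84847113, minus strand), and ERSE-II for Herpud1 (chr8:94386357-94386407, plus strand). Herpud1 also held a CARE and was the only member with motifs of both kinds.
Hspa5: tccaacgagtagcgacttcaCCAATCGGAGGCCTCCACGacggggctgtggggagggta
Hsp90b1: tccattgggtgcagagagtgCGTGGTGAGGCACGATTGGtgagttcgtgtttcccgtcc
Calr: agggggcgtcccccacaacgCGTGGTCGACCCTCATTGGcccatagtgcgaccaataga
Herpud1: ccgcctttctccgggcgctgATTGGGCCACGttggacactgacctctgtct

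The comparison of SF3A1 siRNA with control siRNA asks what SF3A1 depletion did to each arm, without and with LPS. Without LPS, 24 of the 34 tested genes changed, 4 higher and 20 lower, where 33.8% of all tested genes changed (13.7% higher and 20.1% lower). With LPS, 22 changed, 2 higher and 20 lower, where 38.8% of all tested genes changed (18.4% higher and 20.4% lower). The split with LPS moved with single libraries, to 7 higher and 17 lower without control siRNA with LPS replicate 1, 0 higher and 19 lower without SF3A1 siRNA with LPS replicate 1, and 5 higher and 20 lower without replicate 1 of any group. In the same 3 settings 19.7% of all tested genes were higher and 19.6% lower, then 15.1% and 18.4%, then 22.0% and 23.1%. The median log2 fold change of the 34 genes was -0.737 without LPS and -0.69 with LPS, and over all tested genes it was -0.0203 and -0.0373. The amino acid genes made up more than any other role of the fall, since 11 of 12 fell without LPS and 12 of 12 with LPS, while 3 of 8 chaperone and ERAD genes fell in each condition (5 of 8 in the blocked fit, which adds the replicate number as a term and in which 26.3% of all tested genes were lower in each condition). The control and knockdown libraries did not overlap for 26 of the 34 genes without LPS and for 18 with LPS, against 45.6% and 39.1% of all tested genes.

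**Figure D1:**
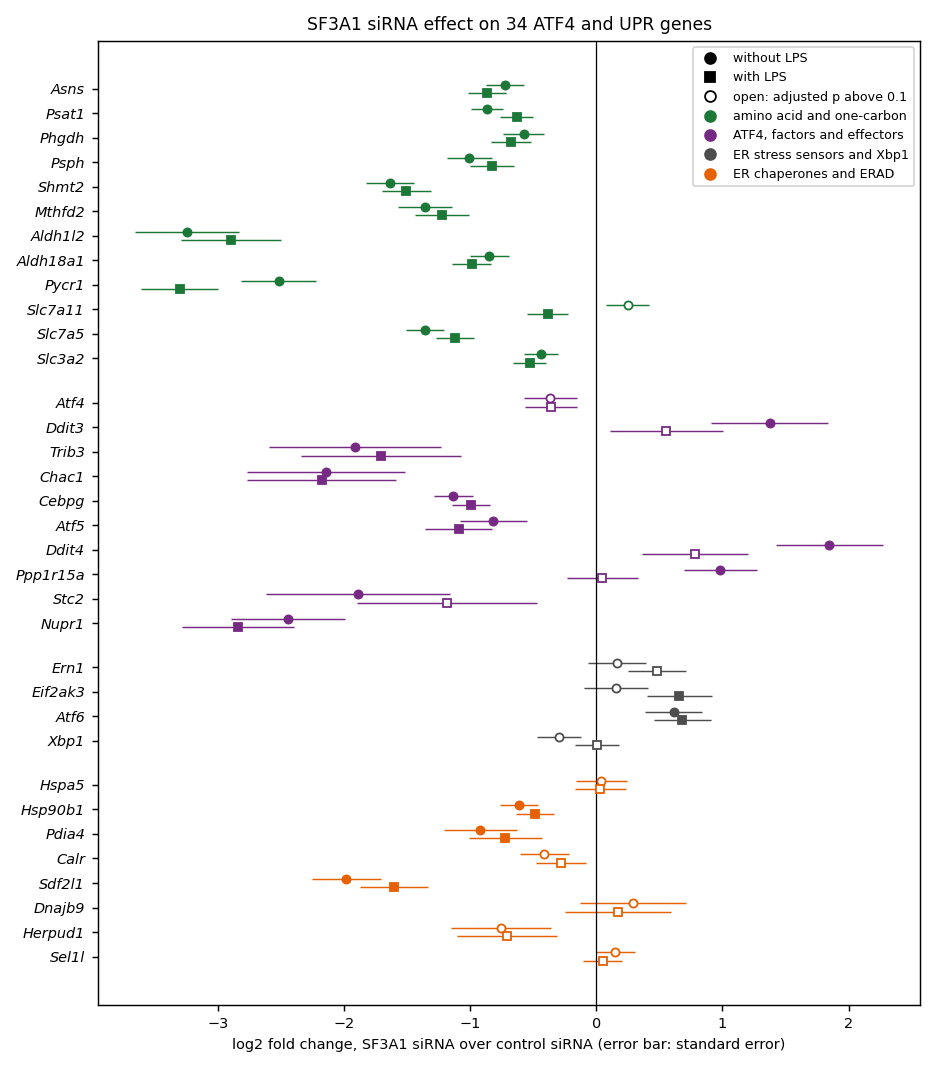
Log2 fold change of each tested gene for SF3A1 against control siRNA without and with LPS (bars, SE), by role, with filled points for genes called at an adjusted p of 0.1. The amino acid genes sit below 0 except Slc7a11 without LPS, and the sensor genes sit near or above 0.

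The genes for each step of serine synthesis were lower. Phgdh, which encodes the first enzyme of the pathway, stood at 167, 168 and 173 CPM in replicates 1, 2 and 3 of control siRNA without LPS and at 106, 144 and 91.4 CPM with SF3A1 siRNA (log2 fold change -0.58, SE 0.159, adjusted p = 0.0175, edgeR's quasi-likelihood test). With LPS the values were 182, 169 and 194 CPM against 119.8, 118 and 103 CPM (-0.67, SE 0.159, adjusted p = 0.00655 by edgeR). All 6 knockdown libraries were below all 6 control libraries. The call without LPS was lost when control replicate 3 was left out (-0.47).

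Psat1 (phosphoserine aminotransferase) stood at 471, 553 and 546 CPM with control siRNA and at 288, 311 and 262 CPM with SF3A1 siRNA without LPS (log2 fold change -0.87, SE 0.1295, adjusted p = 0.000448, edgeR). LPS-treated cells held 382, 355 and 414 CPM against 259, 256 and 228 CPM (-0.63, adjusted p = 0.00277, edgeR). The groups stayed apart in both conditions, and Psat1 was also the amino acid gene that LPS lowered in control cells. Psph (phosphoserine phosphatase), whose exons overlap exons of Cct6a on the other strand, fell from 80.3, 82.8 and 95.7 CPM to 43.9, 40.9 and 43.9 CPM without LPS (log2 fold change -1.01, SE 0.178, adjusted p = 0.0013, edgeR). With LPS it stood at 114, 86.9 and 114 CPM against 75.9, 50.4 and 51.3 CPM (-0.82, adjusted p = 0.00369, edgeR). Cct6a drew 114343 reads over the 12 libraries and Psph 21989, and whether the counting used strand is not given in the sources used here.

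Mitochondrial one-carbon genes fell further. Shmt2 (ENSMUSG00000025403, chr10:127517123-127522444, minus strand, on mm10 as for all positions here), the mitochondrial serine hydroxymethyltransferase, stood at 747, 649.8 and 591 CPM in control cells and at 273, 193 and 175 CPM after SF3A1 siRNA (log2 fold change -1.63, SE 0.191, adjusted p = 0.000106, edgeR). With LPS the values were 666, 584 and 608 CPM and 265, 201 and 189 CPM (-1.504, adjusted p = 0.000135, edgeR). The highest knockdown library was below the lowest control library by a wide margin in both conditions.

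Mthfd2, the mitochondrial methylene-tetrahydrofolate dehydrogenase, stood at 155, 243 and 235 CPM with control siRNA and 90.7, 85.8 and 70.9 CPM with SF3A1 siRNA (log2 fold change -1.36, SE 0.216, adjusted p = 0.000693, edgeR), and with LPS at 313, 294 and 382 CPM and 182, 126 and 115 CPM (-1.22, adjusted p = 0.00107). Its groups did not overlap either. Aldh1l2 (ENSMUSG00000020256, chr10:83487450-83534140, minus strand), the mitochondrial formyltetrahydrofolate dehydrogenase, had the largest fold change of the 34 genes without LPS, 9.45-fold lower, from 24.9, 22.7 and 21.6 CPM to 3.14, 2.397 and 1.64 CPM (log2 fold change -3.24, SE 0.413, adjusted p = 0.000172, edgeR). With LPS it was 7.44-fold lower, at 36.1, 21.1 and 31.1 CPM against 6.39, 1.57 and 3.66 CPM (-2.896, adjusted p = 0.000217). An exon of D10Wsu102e, with 29430 reads against 4759 for Aldh1l2, overlaps it on the other strand.

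Genes for asparagine and proline synthesis were also lower. Asns (ENSMUSG00000029752, chr6:7675169-7693254, minus strand), asparagine synthetase, stood at 154, 188 and 212 CPM in control cells and 104, 120.2 and 112 CPM after SF3A1 siRNA (log2 fold change -0.72, SE 0.151, adjusted p = 0.00367, edgeR). With LPS it reached 289.7, 262 and 351 CPM in control cells and 164, 165 and 167 CPM in SF3A1-depleted cells (log2 fold change -0.86, SE 0.151, adjusted p = 0.00103). All knockdown libraries were below the control libraries of their condition, and the LPS-treated knockdown libraries lay within the untreated control range.

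Aldh18a1, the first enzyme of proline synthesis from glutamate, stood at 190.2, 207 and 214 CPM and, with SF3A1 siRNA, at 134, 106 and 99.5 CPM (-0.85, adjusted p = 0.00174, edgeR), and with LPS at 225, 205 and 215 CPM and 128, 90.1 and 107 CPM (-0.99, adjusted p = 0.000572). Pycr1 (ENSMUSG00000025140, chr11:120635712-120643769, minus strand), the last enzyme of the same route, stood at 9.08, 6.702 and 8.73 CPM and 1.64, 1.67 and 0.893 CPM without LPS, 5.72-fold lower (log2 fold change -2.52, SE 0.298, adjusted p = 0.000111, edgeR). With LPS it stood at 13.2, 8.43 and 12.1 CPM and 1.15, 0.846 and 1.396 CPM, 9.86-fold lower, the largest fold change of the 34 genes in that condition (log2 fold change -3.302, SE 0.306, adjusted p = 2.25e-05). Neither gene's groups overlapped.

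The transporters divided. Slc7a5, the large neutral amino acid transporter LAT1, stood at 246, 308 and 251 CPM and at 114, 105 and 95.0 CPM with SF3A1 siRNA (log2 fold change -1.36, SE 0.153, adjusted p = 8.65e-05, edgeR), and with LPS at 319, 338 and 287 CPM and 168, 123 and 143 CPM (-1.12, adjusted p = 0.000206). Slc3a2, the heavy chain that both SLC7A5 and SLC7A11 need at the cell surface, stood at 219, 251 and 236 CPM and 188, 161 and 172 CPM (-0.44, adjusted p = 0.0289, edgeR), and with LPS at 485, 484 and 501 CPM and 387, 341 and 291 CPM (-0.53, adjusted p = 0.00979). Both genes were lower in every knockdown library than in any control library of the same condition. The Slc3a2 call without LPS was lost without control replicate 2 (-0.31), control replicate 3 (-0.35) or SF3A1 siRNA replicate 2 (-0.37).

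Slc7a11 (ENSMUSG00000027737, chr3:49892526-50443614, minus strand) encodes the light chain of the cystine/glutamate exchanger. It passed with LPS only, and a difference from the other transporters was not tested. Without LPS it stood at 17.7, 22.03 and 19.9 CPM with control siRNA and at 28.5, 20.7 and 21.4 CPM with SF3A1 siRNA (0.25, adjusted p = 0.316, edgeR), and the groups overlapped. With LPS it stood at 278, 278 and 276 CPM and at 193, 187 and 258 CPM (-0.38, adjusted p = 0.0961), with every knockdown library below the controls. That call was lost in 10 of the 14 alternative settings, among them leaving out any LPS-treated control library (-0.39 to -0.38) or treated knockdown replicate 1 (-0.32) or 2 (-0.299).

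**Figure D2:**
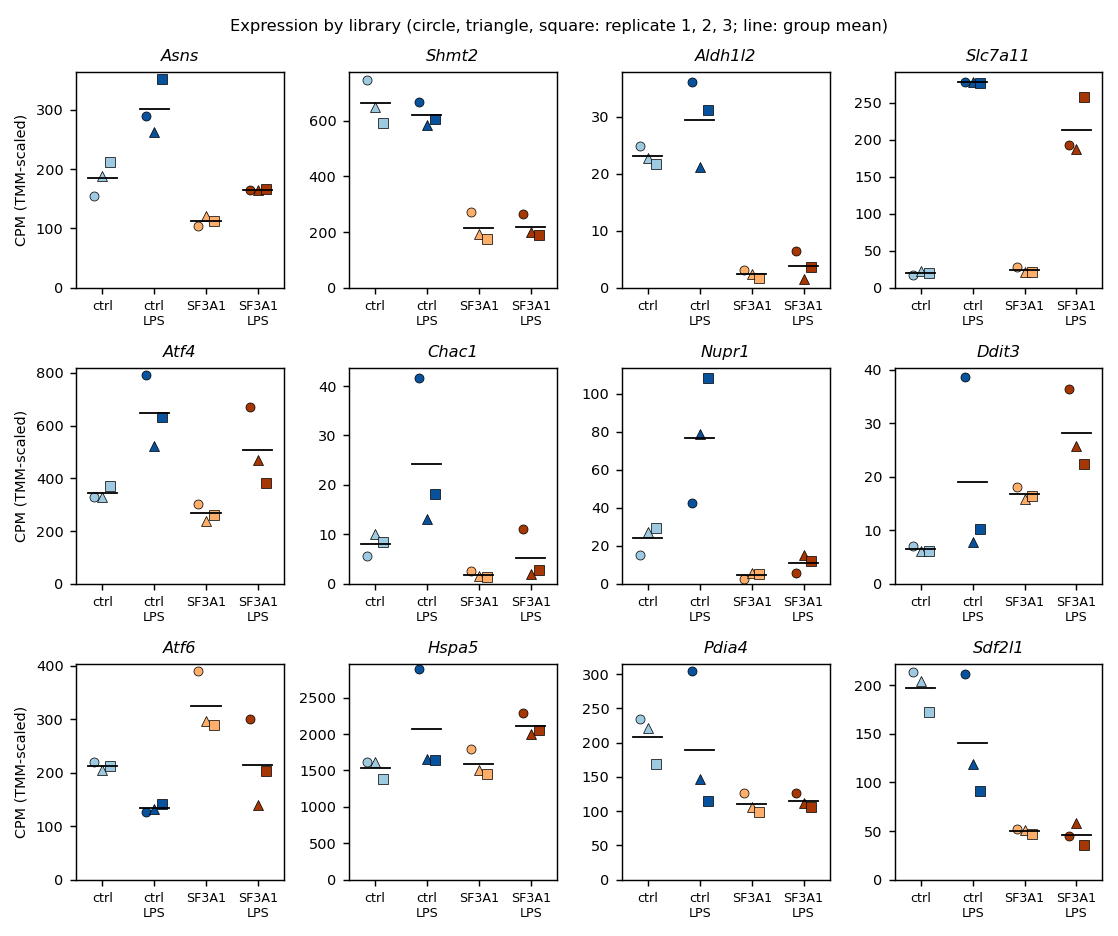
CPM in each of the 12 libraries for 12 of the genes, on linear axes from 0, with a point for each library and a line at the mean of each group of 3. Asns, Shmt2, Aldh1l2, Chac1, Nupr1 and Sdf2l1 lie lower in the SF3A1 siRNA groups, Slc7a11 stands out in both LPS groups, and Hspa5 overlaps between siRNA groups.

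Among ATF4 and its effectors, most of the genes that moved were lower, and Atf4 itself was not called. Without LPS, 3 of the 10 tested genes were higher and 6 lower, with a median log2 fold change of -0.974, and with LPS 0 were higher and 5 lower, with a median of -1.04 (1 higher and 7 lower in the blocked fit). The 3 that rose without LPS were Ddit3, Ddit4 and Ppp1r15a. None of these 3 passed the test with LPS.

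Atf4 (ENSMUSG00000042406, chr15:80255184-80257541, plus strand) stood at 331, 329.8 and 373 CPM in control cells and at 302, 239.7 and 261 CPM after SF3A1 siRNA, and with LPS at 791, 523 and 632 CPM and 671, 468 and 383 CPM. Without LPS each knockdown library was below each control library, and with LPS the groups overlapped. The difference did not pass the test without LPS (log2 fold change -0.36, SE 0.207, adjusted p = 0.227, edgeR) or with LPS (log2 fold change -0.36, SE 0.207, adjusted p = 0.223), and passed in both conditions when the replicate number was a block (adjusted p = 0.0662 and 0.0733, log2 fold changes -0.38 and -0.36). Without SF3A1 siRNA with LPS replicate 1 the difference with LPS was -0.61 and passed. ATF4 protein was not measured.

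Cebpg, a C/EBP factor that pairs with ATF4, stood at 35.3, 41.3 and 47.9 CPM and, after SF3A1 siRNA, at 17.9, 18.8 and 20.01 CPM (log2 fold change -1.13, SE 0.152, adjusted p = 0.000228, edgeR), and with LPS at 33.7, 31.3 and 36.6 CPM and 15.5, 17.05 and 18.6 CPM (-0.99, adjusted p = 0.000453). Atf5, a relative of ATF4, stood at 29.1, 30.03 and 28.7 CPM and 17.7, 16.2 and 15.8 CPM (-0.82, adjusted p = 0.0375, edgeR), and with LPS at 86.9, 58.02 and 63.4 CPM and 50.1, 25.03 and 22.5 CPM (-1.09, adjusted p = 0.00731). Both were lower in every knockdown library than in any control library of the same condition. The Atf5 call without LPS was lost without any 1 of the controls (-0.74 to -0.72) or without knockdown replicate 2 (-0.79) or 3 (-0.78). Atf5 exons overlap exons of Il4i1 on the other strand, which drew 7159 reads against 11302 for Atf5.

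Nupr1 (ENSMUSG00000030717, chr7:126623249-126630861, minus strand), a small stress-induced chromatin protein, was 5.43-fold lower without LPS, at 15.2, 27.3 and 29.2 CPM against 2.62, 5.52 and 5.21 CPM (log2 fold change -2.44, SE 0.4498, adjusted p = 0.0017, edgeR). With LPS it was 7.16-fold lower, at 42.5, 79.1 and 108 CPM against 5.51, 14.99 and 11.8 CPM (log2 fold change -2.84, SE 0.441, adjusted p = 0.000491). In each group replicate 1 was the lowest library, and the siRNA groups did not overlap.

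Chac1 (ENSMUSG00000027313, chr2:119351229-119354381, plus strand), a glutathione-degrading cyclotransferase, stood at 5.64, 10.1 and 8.47 CPM and, with SF3A1 siRNA, at 2.48, 1.505 and 1.34 CPM (log2 fold change -2.14, SE 0.626, adjusted p = 0.0231, edgeR), and with LPS at 41.7, 13.04 and 18.2 CPM and 11.1, 1.99 and 2.74 CPM (-2.18, adjusted p = 0.0142). Trib3, a pseudokinase that feeds back on ATF4 and CHOP, stood at 2.82, 6.26 and 6.98 CPM and 1.42, 1.39 and 1.41 CPM (-1.91, adjusted p = 0.0568, edgeR), and with LPS at 23.8, 9.06 and 9.76 CPM and 9.63, 1.33 and 1.88 CPM (-1.71, adjusted p = 0.0587). In the LPS groups replicate 1 carried the highest level of both genes, and the Trib3 groups overlapped while the Chac1 groups did not. The Trib3 call was lost without LPS when control replicate 2 (-1.696) or 3 (-1.58) or any knockdown library (-1.92 to -1.89) was left out, and with LPS when control replicate 1 (-1.098) or knockdown replicate 2 (-1.296) or 3 (-1.35) was. With 1 library left out, the Trib3 difference with LPS ranged from -3.15 to -1.1 and that of Chac1 from -3.36 to -1.53. Stc2, a secreted glycoprotein, stood at 8.96, 34.4 and 39.3 CPM and 1.97, 11.9 and 8.63 CPM (-1.89, adjusted p = 0.0743, edgeR), and with LPS at 12.8, 18.997 and 38.03 CPM and 3.15, 14.8 and 12.99 CPM (-1.18, adjusted p = 0.238). Replicate 1 was the lowest library in each Stc2 group, the groups overlapped, and a block for the replicate number let the difference with LPS pass (-1.38, adjusted p = 0.00164). Its call without LPS was lost without control replicate 2 (-1.605) or 3 (-1.44) or knockdown replicate 1 (-1.41) or 3 (-2.002).

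Of the genes that rose, Ddit3 (ENSMUSG00000025408, chr10:127290774-127296288, plus strand) encodes CHOP, the C/EBP-homologous factor of ER stress. It stood at 7.04, 6.21 and 6.17 CPM in control cells and at 18.1, 15.9 and 16.4 CPM after SF3A1 siRNA without LPS (log2 fold change 1.37, SE 0.464, adjusted p = 0.0445, edgeR), with no overlap. After LPS it was at 38.8, 7.87 and 10.3 CPM and 36.4, 25.8 and 22.4 CPM (0.55, adjusted p = 0.395), and the groups overlapped through control siRNA with LPS replicate 1. Without that library the log2 fold change with LPS was 1.64 and passed the test, and with the replicate number as a block it was 0.73 (adjusted p = 0.0928). Part of the Ddit3 reads is uncertain. Exons of Mars, the methionyl-tRNA synthetase gene on the other strand, overlap the 3′ end of Ddit3 within chr10:127296221-127296288. Mars drew 60635 reads against 5442 for Ddit3, and Mars itself was at -0.72 without LPS.

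Ddit4, an inhibitor of mTORC1 signalling, stood at 6.81, 9.52 and 11.1 CPM and rose to 21.8, 42.1 and 34.7 CPM with SF3A1 siRNA without LPS, 3.598-fold (log2 fold change 1.85, SE 0.426, adjusted p = 0.00651, edgeR). With LPS it stood at 19.9, 5.33 and 7.07 CPM and 15.6, 23.1 and 18.1 CPM (0.78, adjusted p = 0.181), and without control siRNA with LPS replicate 1 the difference was 1.601 and passed. Ppp1r15a encodes GADD34, the phosphatase subunit that reverses eIF2 phosphorylation, and stood at 20.1, 12.7 and 13.5 CPM and 34.1, 24.2 and 33.5 CPM without LPS (log2 fold change 0.98, SE 0.288, adjusted p = 0.0236, edgeR). With LPS its values were 68.4, 57.9 and 59.9 CPM and 98.9, 45.5 and 47.7 CPM (0.047, adjusted p = 0.925), and the groups overlapped.

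No sensor gene passed as lower in knockdown cells. Without LPS, 1 of 4 was higher, and with LPS 2 were higher, with medians of 0.16 and 0.572. Atf6 (ENSMUSG00000026663, chr1:170704674-170867771, minus strand), which encodes the sensor that is cleaved in the Golgi to an active factor, stood at 220.2, 206 and 212 CPM and 391, 297 and 290.3 CPM without LPS (log2 fold change 0.61, SE 0.225, adjusted p = 0.0613, edgeR), and at 127, 132 and 142 CPM and 300.1, 139 and 203 CPM with LPS (0.68, adjusted p = 0.0363). The groups were apart without LPS and overlapped with LPS, where leaving out SF3A1 siRNA with LPS replicate 1 brought the difference to 0.36 and ended the call. Without LPS the Atf6 call was lost without control replicate 2 (0.67) or knockdown replicate 1 (0.47).

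Eif2ak3, which encodes PERK, stood at 45.5, 37.9 and 33.04 CPM and 46.9, 40.8 and 42.1 CPM without LPS (0.16, adjusted p = 0.712, edgeR), and at 29.8, 16.7 and 15.3 CPM and 41.97, 25.1 and 30.8 CPM with LPS (0.66, adjusted p = 0.0693), where the groups overlapped by a single control library. That call was lost without control replicate 2 (0.53) or 3 (0.48) or knockdown replicate 1 (0.44) or 3 (0.702). Ern1, which encodes IRE1, did not pass (0.16, adjusted p = 0.661 without LPS and 0.48, adjusted p = 0.132 with LPS, edgeR) and passed with LPS when the replicate number was a block (0.49, adjusted p = 0.0178), or without control replicate 1 (0.71) or knockdown replicate 2 (0.66). Xbp1 ranged between 296 and 504 CPM over the 12 libraries, with log2 fold changes of -0.29 (adjusted p = 0.248) and 0.007 (adjusted p = 0.983) by edgeR.

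The chaperone and ERAD genes were mixed, with 3 of 8 lower in each condition, 0 higher, and medians of -0.512 and -0.382 (the block added Calr and Herpud1 to the lower genes in both conditions). Hspa5 (ENSMUSG00000026864, chr2:34771970-34777547, plus strand), the gene of the central ER chaperone BiP, stood at 1613, 1615 and 1388 CPM in control cells and 1798, 1502 and 1448 CPM after SF3A1 siRNA (log2 fold change 0.041, SE 0.202, adjusted p = 0.916, edgeR), and with LPS at 2889, 1655 and 1645 CPM and 2284, 1997 and 2052 CPM (log2 fold change 0.033, SE 0.202, adjusted p = 0.926). Its groups overlapped in both conditions. Without control siRNA with LPS replicate 1, the highest Hspa5 library, the difference with LPS was 0.36 and passed the test.

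Sdf2l1 (ENSMUSG00000022769, chr16:17130138-17132383, minus strand), a partner of BiP, had the largest fall of the chaperone group. It stood at 213, 204 and 173 CPM and at 51.7, 50.9 and 46.7 CPM with SF3A1 siRNA, 3.95-fold lower (log2 fold change -1.98, SE 0.273, adjusted p = 0.00027, edgeR). With LPS it stood at 212, 119 and 91.3 CPM and 45.3, 58.2 and 35.6 CPM, 3.04-fold lower (-1.604, adjusted p = 0.000818), and the groups were apart in both conditions.

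Hsp90b1, the ER form of HSP90, stood at 1432, 1699 and 1445 CPM and 981, 1146 and 866 CPM (-0.61, adjusted p = 0.00865, edgeR), and with LPS at 1566, 1446 and 1249 CPM and 1013, 1106 and 925 CPM (-0.48, adjusted p = 0.0256), without overlap. The Hsp90b1 call with LPS held when any 1 library was left out (-0.57 to -0.41) but was lost among the other alternative settings. Pdia4, a protein disulfide isomerase, stood at 235, 222 and 169.5 CPM and 126, 107 and 98.5 CPM (-0.92, adjusted p = 0.0325, edgeR). With LPS it stood at 305, 147 and 115 CPM and 126, 113 and 106 CPM (-0.72, adjusted p = 0.0767), with overlap, and without control siRNA with LPS replicate 1, its highest library, the difference was -0.19 and did not pass. Leaving out any treated knockdown library (-0.79 to -0.66), or without LPS control replicate 1 (-0.73) or 2 (-0.797) or knockdown replicate 3 (-0.84), also ended its call.

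The other 4 genes of the group did not pass in either condition. Calr, the lectin chaperone calreticulin, was at -0.41, adjusted p = 0.148 and -0.28, adjusted p = 0.322 by edgeR, and with the replicate number as a block at adjusted p = 0.00623 and 0.0417 (log2 fold changes -0.41 and -0.28). Herpud1, an ERAD component, was at -0.75, adjusted p = 0.19 and -0.705, adjusted p = 0.205, and with the block at adjusted p = 0.00415 and 0.0239 (log2 fold changes -0.77 and -0.55). Without untreated knockdown replicate 1 the Herpud1 difference was -1.16 and passed. Dnajb9, a co-chaperone of BiP, was at 0.29 (adjusted p = 0.675) and 0.17 (adjusted p = 0.806), and without control siRNA with LPS replicate 1 at 0.97 with LPS, which passed. Sel1l, the adaptor of the HRD1 ubiquitin ligase, was at 0.15 (adjusted p = 0.534) and 0.050 (adjusted p = 0.85).

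Over the role groups, the libraries could also be read one by one. The median log2 ratio of the 12 amino acid genes to their control mean was -0.917, -1.01 and -1.02 in the untreated knockdown libraries and -0.586, -0.902 and -0.897 in those with LPS, against -0.104 to 0.484 in the 6 control siRNA libraries. The 8 chaperone genes gave -0.261, -0.318 and -0.763 and then -0.128, -0.102 and -0.243 in the same knockdown libraries, against -0.206 to 0.383 in the controls. All 6 knockdown libraries lay under all 6 control libraries for the amino acid genes, while for the chaperones they did so without LPS and overlapped with LPS. When replicate 1 was left out of all groups, 11 of 12 amino acid genes were lower without LPS and 11 with LPS, the ATF4 group had 3 higher and 7 lower without LPS and 2 higher and 7 lower with LPS, and for the chaperones 4 were lower without LPS, while with LPS 1 was higher and 2 lower. In that setting 18.3% of all tested genes were higher and 23.1% lower without LPS, and 22.0% and 23.1% with LPS.

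**Figure D3:**
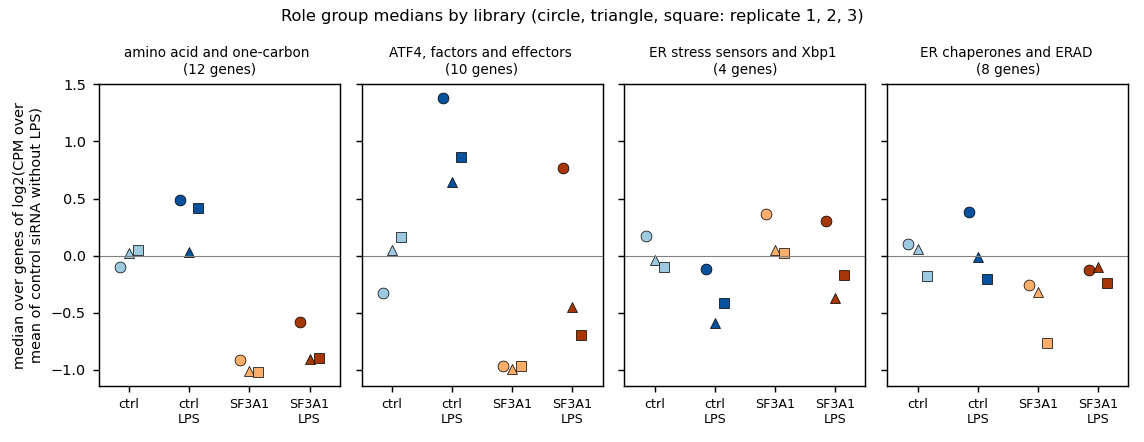
Median over the tested genes of each role group of the log2 ratio of CPM + 0.1 to the mean of control siRNA without LPS, 1 point per library. The amino acid points of both SF3A1 siRNA groups lie between -1.02 and -0.586, below every control library.

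Calr, Hsp90b1 and Hspa5 were the most abundant members per kilobase in untreated control cells, and 4 of the other 5 genes of the chaperone group were below Atf4, with Pdia4 at 87.04, Herpud1 at 42.3, Sel1l at 22.5 and Dnajb9 at 3.31 CPM per kb. Per kilobase of exon, Calr stood at 613 CPM per kb in untreated control cells, Hsp90b1 at 378, Hspa5 at 364, Shmt2 at 213 and Sdf2l1 at 178, with Atf4 at 146. After SF3A1 siRNA, Shmt2 stood at 68.7 CPM per kb and Sdf2l1 at 44.9, both below Atf4 at 114.

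LPS in cells with control siRNA asks how these genes respond to LPS when SF3A1 is intact. Of the 34 tested genes, 11 rose and 3 fell, where 32.1% of all tested genes changed (13.8% higher and 18.3% lower). In the ATF4 group 6 of 10 genes were higher and 0 lower (median 1.34), and 4 of 12 amino acid genes were higher and 1 lower (median 0.318). The sensors had 2 of 4 lower and the chaperones 1 of 8 higher, with medians of -0.424 and 0.026. Treated and untreated libraries did not overlap for 15 of the 34 genes, against 40.2% of all tested genes. With scaling to library totals alone, which moved the median over all tested genes from -0.0166 to -0.204, the split was 10 higher and 5 lower, against 10.7% and 27.9% of all tested genes. Without replicate 1 of any group the split was 11 higher and 7 lower, against 14.4% and 20.2% of all tested genes. Without control siRNA with LPS replicate 1 it was 8 higher and 4 lower, against 12.3% and 17.8%.

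Slc7a11 rose 13.98-fold from a mean of 19.9 ± 2.18 to 278 ± 0.968 CPM (SD, n = 3), with all 3 treated libraries far above the untreated ones (log2 fold change 3.81, SE 0.185, adjusted p = 2.82e-08, edgeR). Its partner Slc3a2 rose 2.08-fold (log2 fold change 1.06, SE 0.135, adjusted p = 8.33e-05), Asns by 0.71 (adjusted p = 0.00357) and Mthfd2 by 0.64 (adjusted p = 0.0415) on the log2 scale. Psat1 fell (-0.45, adjusted p = 0.0206, edgeR). None of these 5 genes overlapped between treated and untreated control libraries. The Mthfd2 call was lost without untreated replicate 1 (0.49) or treated replicate 3 (0.52).

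Atf4 rose in all 3 LPS-treated control libraries above all untreated ones (log2 fold change 0.91, SE 0.208, adjusted p = 0.00544, edgeR). Ppp1r15a rose 4.01-fold (2.003, adjusted p = 0.000258), Atf5 2.38-fold (1.25, adjusted p = 0.00335) and Nupr1 3.21-fold (1.68, adjusted p = 0.00946). Ddit3 (1.57, adjusted p = 0.024), Chac1 (1.61, adjusted p = 0.0587) and the chaperone-group gene Herpud1 (1.13, adjusted p = 0.0529) also passed, with control siRNA with LPS replicate 1 the highest library of each. Without that library their log2 fold changes were 0.49, 0.96 and 0.50 and none of the 3 passed. The Chac1 call was also lost without untreated replicate 1 (1.43) or 3 (1.66), and that of Herpud1 without untreated replicate 2 (1.01) or 3 (0.97).

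Of the sensors, 2 fell with LPS. Atf6 fell from a mean of 213 ± 7.02 to 134 ± 8.01 CPM (SD, n = 3; -0.67, adjusted p = 0.043, edgeR), and Eif2ak3 fell from 38.8 ± 6.29 to 20.6 ± 7.99 CPM (-0.91, adjusted p = 0.019), with no overlap for either. The Atf6 call was lost without untreated replicate 1 (-0.62) or treated replicate 1 (-0.64) or 2 (-0.66). Herpud1 stood at 141, 81.05 and 74.2 CPM without and 369.8, 137 and 143 CPM with LPS, and each treated library was above the untreated library of the same number, by 2.62, 1.69 and 1.93-fold for replicates 1, 2 and 3. Hspa5 (0.42, adjusted p = 0.157), Sdf2l1 (-0.48, adjusted p = 0.219) and Cebpg (-0.29, adjusted p = 0.189) did not pass with edgeR, and passed with the replicate number as a block (0.38, adjusted p = 0.0493 for Hspa5, -0.53, adjusted p = 0.0487 for Sdf2l1, -0.28, adjusted p = 0.0841 for Cebpg). Without treated replicate 1, Sdf2l1 (-0.91) and Pdia4 (-0.68) passed as lower, and without treated replicate 2 or 3 Hspa5 passed as higher (0.56 in either case).

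**Figure D4:**
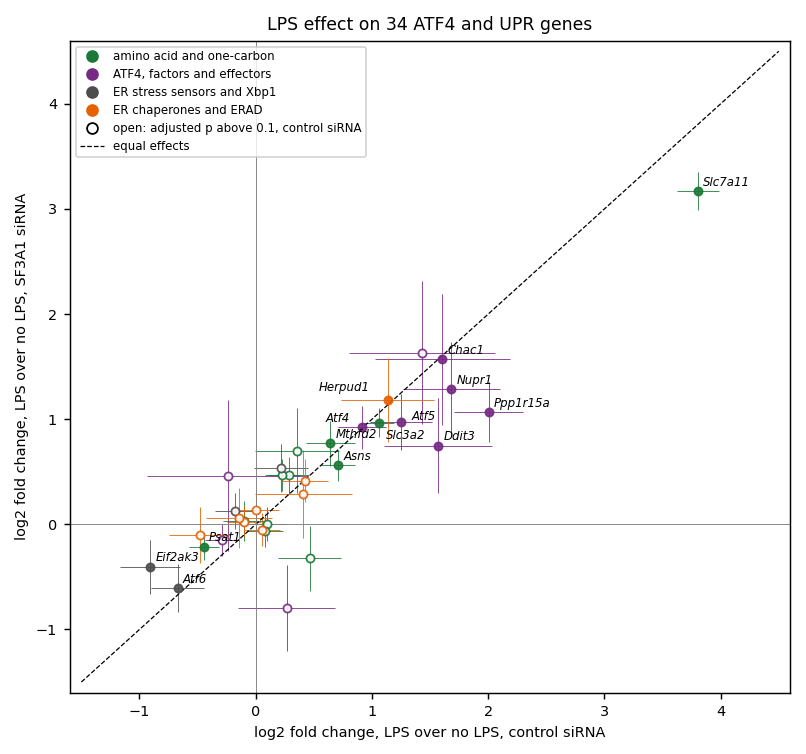
Log2 fold change of each tested gene for LPS against no LPS with control siRNA and with SF3A1 siRNA (bars, SE), by role, with filled points for genes called at an adjusted p of 0.1. Slc7a11 is the highest point of both series, at 3.81 and 3.17.

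In cells with SF3A1 siRNA, LPS raised 8 of the 34 genes and lowered 0, where 10.7% of all tested genes changed (6.6% higher and 4.06% lower). The 8 were Slc7a11 (9.01-fold, adjusted p = 3.94e-07, edgeR), Slc3a2 (0.97, adjusted p = 0.000523), Asns (0.56, adjusted p = 0.0395), Mthfd2 (0.77, adjusted p = 0.0462), Slc7a5 (0.47, adjusted p = 0.0888), Atf4 (0.92, adjusted p = 0.0163), Atf5 (0.97, adjusted p = 0.0429) and Ppp1r15a (1.07, adjusted p = 0.0396). They comprised 5 amino acid genes, 3 genes of the ATF4 group, no sensor and no chaperone, and 13 of the 34 genes did not overlap between the groups, against 24.8% of all tested genes. This comparison depended on the treatment of replicates. With the replicate number as a block 16 genes passed, 14 higher and 2 lower, against 20.8% of all tested genes, and without replicate 1 of any group 15 passed, against 15.1%, while scaling to library totals gave 6 higher and 1 lower, against 5.47% and 8.19% of all tested genes. Leaving out treated knockdown replicate 1 ended the calls of Mthfd2 (0.54), Atf5 (0.51), Ppp1r15a (0.61) and Slc7a5 (0.34). Leaving out an untreated knockdown library ended those of Asns (replicate 1, 0.51, or 3, 0.56), Mthfd2 (replicate 2, 0.803, or 3, 0.67), Ppp1r15a (replicate 2, 0.93), Atf5 (any, 0.94 to 1.02) and Slc7a5 (any, 0.402 to 0.53), and Slc7a5 was also lost without treated replicate 3 (0.48).

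The blocked fit added Nupr1 (1.24, adjusted p = 0.000272, edgeR), Herpud1 (1.28, adjusted p = 0.000319), Ern1 (0.53, adjusted p = 0.0291), Psph (0.45, adjusted p = 0.0562), Chac1 (1.44, adjusted p = 0.078), Hspa5 (0.42, adjusted p = 0.063), Atf6 (-0.63, adjusted p = 0.029) and Eif2ak3 (-0.43, adjusted p = 0.088). Of these, Atf6 and Eif2ak3, both sensors, were the 2 that fell. All 8 had the same sign without the block. In the fit without the block, leaving out treated replicate 1 let Nupr1 (1.61) and Atf6 (-0.93) pass, leaving out treated replicate 2 let Aldh1l2 (1.05) pass, and leaving out untreated replicate 1 let Herpud1 (1.595) pass.

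Whether SF3A1 siRNA altered the LPS response was tested by the interaction of siRNA and LPS. No member passed with edgeR's quasi-likelihood test, DESeq2 or limma-voom, and 3.47% of all tested genes passed with edgeR. At an unadjusted p under 0.05 there were 2 of the 34, below the 13.1% of all tested genes. Ppp1r15a, which rose 4.01-fold with LPS in control cells and 2.097-fold in knockdown cells, had an interaction of -0.94 (adjusted p = 0.331) and passed when the replicate number was a block (-1.03, adjusted p = 0.0265) or when SF3A1 siRNA with LPS replicate 1 was left out (-1.396). The 2 siRNA comparisons and the 2 LPS comparisons share libraries, so their values are given side by side only.

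Exon counts ask whether SF3A1 siRNA changed the use of parts of these transcripts beyond the level of the gene. Counts per exon bin, a stretch of exon between annotated boundaries, were held for 11 libraries, all but control siRNA with LPS replicate 3, and 447 bins of the 34 genes were tested. In untreated cells 4 of the 34 genes had a bin whose share of the gene changed at an adjusted p of 0.1 or lower (Hspa5, Ddit3, Psat1 and Psph), against 6.16% of the 10609 genes tested. With LPS 1 had (Hspa5), against 5.03%, and with LPS against no LPS in control cells 0 had by edgeR's exon test, against 0.462%. At an unadjusted p under 0.05 the numbers of genes were 9, 6 and 6 of 34, against 25.7%, 30.5% and 17.5% of all genes tested. With the replicate block, Hsp90b1 was added without LPS (bin 4, 1.08, adjusted p = 0.00427) and Slc3a2 for LPS in control cells (bin 11, -1.51, adjusted p = 0.0419), where 11.5% and 1.22% of all genes passed. Of the calls without LPS, that of Hspa5 held when any 1 library was left out, with limma-voom and with the replicate block, and the other 3 were each lost in some of these.

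Hspa5 bin 5 of 29 took a larger share of the gene in every knockdown library. It held 0.678%, 0.468% and 0.384% of the gene's bin counts in replicates 1, 2 and 3 of control siRNA without LPS and 2.89%, 2.05% and 1.90% with SF3A1 siRNA (log2 difference 2.16, adjusted p = 5.73e-07, edgeR's exon test). With LPS it held 0.866% and 0.646% in the 2 control libraries and 2.74%, 1.64% and 1.71% with SF3A1 siRNA (1.38, adjusted p = 0.0472), where the call was lost without control replicate 1 (adjusted p = 0.2) or 2 (0.391) or knockdown replicate 1 (0.391) or 3 (0.111). Leaving out either control library left 1 in that arm, assumed to vary like the other groups, and the log2 difference was then 1.67 or 1.25. No control library reached any knockdown library, in a gene whose total level did not pass the test. The position of this bin could not be set from the annotation used here.

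Ddit3 bin 4 of 8, which lies at chr10:127293712-127293759 (48 bases) within an annotated intron, moved in the opposite direction. It held 8.35%, 3.74% and 8.46% of Ddit3 bin counts in untreated control cells and 1.19%, 0.743% and 0.667% after SF3A1 siRNA (-2.92, adjusted p = 0.0744, edgeR's exon test), and with LPS 7.21% and 7.86% against 1.17%, 1.46% and 1.61% (-2.45, adjusted p = 0.17), which passed without control replicate 2 (-2.38, adjusted p = 0.0607). The call without LPS was lost with any 1 untreated library left out (adjusted p = 0.124 to 0.556), with limma-voom (0.662) and with the replicate block (0.12). All knockdown libraries were below all control libraries. Bin 4 lies outside the overlap with Mars, which can touch the share only through the total of the gene's bin counts. Ddit3 rose as a whole in the same cells without LPS.

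**Figure D5:**
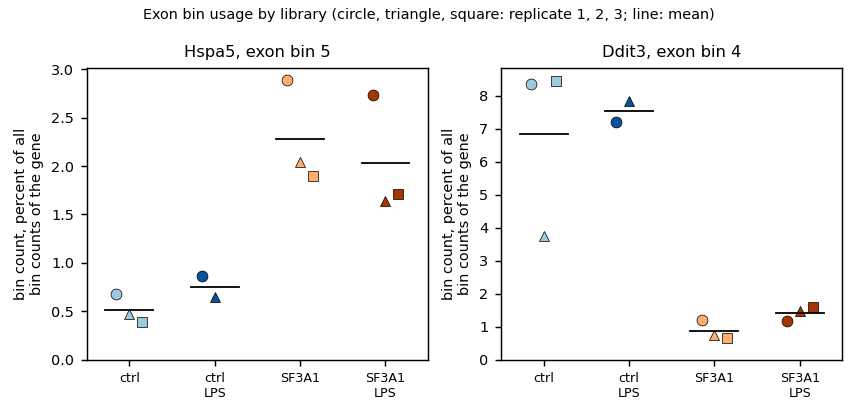
Share of the gene's bin counts, in percent, held by Hspa5 bin 5 and Ddit3 bin 4 in each of the 11 libraries with exon counts. The Hspa5 share is higher and the Ddit3 share lower in all 6 SF3A1 siRNA libraries than in all 5 control siRNA libraries.

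Psat1 bin 19 of 22, at chr19:15924304-15924622 (319 bases) within an annotated intron, rose in share without LPS (2.51, adjusted p = 0.0205, edgeR's exon test) on 3 to 32 reads per untreated library. That call was lost without control replicate 1 (adjusted p = 0.117) or 3 (0.278), without knockdown replicate 1 (0.875) and with limma-voom (0.124). Psph bins 16, 17 and 18 of 18 rose by 1.43, 1.34 and 2.22 (adjusted p = 0.0998, 0.0299 and 0.042), and none of the 3 passed without control replicate 2 or 3 or without knockdown replicate 1. With LPS neither gene passed, except that Psph bins 15, 16 and 17 did with the replicate block (1.10, 1.38 and 1.29, adjusted p = 0.0919, 0.0618 and 0.00291, where 10.4% of all genes passed) and Psat1 bin 2 without knockdown replicate 1 (2.06, adjusted p = 0.0884). In Xbp1, where 11 bins were listed and the shortest was 97 bases, the stretch that IRE1 removes had no bin of its own, so its splicing could not be read from these counts.

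Further genes of the same pathways, taken from comparison lists, are given for comparison, to be read against the 33.8% (without LPS) and 38.8% (with LPS) of all tested genes that changed. Of 20 cytosolic tRNA synthetases, 0 were higher and 11 lower without LPS and 0 were higher and 13 lower with LPS (medians -0.455 and -0.512). The largest falls without LPS were Cars (-1.75, adjusted p = 0.000193, edgeR), Lars (-1.66, adjusted p = 5.86e-05), Vars (-1.35), Iars (-1.14) and Mars (-0.72), which charge tRNA with cysteine, leucine, valine, isoleucine and methionine. With LPS the values of Cars, Lars, Vars and Iars were -1.800, -1.82, -1.44 and -1.42.

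Of 15 other amino acid and one-carbon genes tested, 8 were lower without LPS and 6 with LPS, and 0 were higher (medians -0.59 and -0.39). Pck2, the mitochondrial phosphoenolpyruvate carboxykinase and a known ATF4 target, was at -2.51 (adjusted p = 0.000111, edgeR) and -2.503 with LPS. Slc1a4, a neutral amino acid transporter, was at -1.75 and -1.38, and Gpt2, a mitochondrial alanine aminotransferase, at -1.27 and -1.33. Shmt1 (-1.58), the cytosolic counterpart of Shmt2, and the glycine transporter Slc6a9 (-1.25) were lower without LPS.

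Other stress effectors went in both directions, with 4 of 11 higher and 2 lower without LPS (median 0.795) and 4 higher and 4 lower with LPS (median 0.296). Sesn2, an inhibitor of mTORC1 that p53 and ATF4 both induce, rose by 2.83 without LPS (adjusted p = 8.93e-05, edgeR) and 1.32 with LPS, and Tnfrsf10b, the death receptor DR5 gene, by 2.21 and 1.701. Jdp2 (1.92) and Gadd45a (1.84) rose without LPS. Atf3, a stress factor that restrains Toll-like receptor genes, was lower at -1.35 without and -2.43 with LPS. For Gadd45a the interaction of siRNA and LPS passed (-2.27, adjusted p = 0.0297).

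The remaining lists are given by their counts, beside 33.8% and 38.8% of all tested genes changed without and with LPS. Of 23 other ER folding and ERAD genes tested, 6 changed without LPS and 7 with LPS, both shares below that background, of which 3 were higher and 3 lower without LPS and 3 higher and 4 lower with LPS (medians -0.0692 and -0.0737), among them Edem1, a mannosidase-like ERAD factor, at 0.95 and 0.91 and Sec61a1, the translocon channel gene, at -1.05 and -1.37. Of 12 genes for eIF2, its exchange factor, its kinases and 1 phosphatase subunit (Ppp1r15b), 0 were higher and 6 lower without LPS and 2 higher and 5 lower with LPS (medians -0.349 and -0.396), among them Eif2s2, the beta subunit of eIF2, at -0.67 and -0.799 and Eif2ak2, which encodes the kinase PKR, at -1.24 with LPS (interaction -1.27, adjusted p = 0.0462, edgeR). Of 10 mitochondrial chaperones and proteases, 2 were higher and 2 lower without LPS and 3 higher and 2 lower with LPS (medians -0.0859 and 0.0343).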

How the data were processed

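Reads from 12 Ion Proton libraries were mapped by the authors to mm10 with GSNAP and counted on Ensembl genes with HTSeq. Only uniquely mapped reads were used. The deposited values are raw counts per gene and per exon bin, and no column of per-sample values was left unused. Libraries were sequenced in 1 run, or in 2 runs for replicate 1. Reads on no gene (17.75% to 27.2% of those counted) were kept out of library sizes. Values were TMM-scaled, filtered with filterByExpr and tested with edgeR's quasi-likelihood test (edgeR 4.0.16, limma 3.58.1, R 4.3.3) on all 12 libraries, with Benjamini-Hochberg adjustment over 14983 genes and a limit of 0.1. Exon bins were tested with diffSpliceDGE on 11 libraries over 153624 bins. Both steps were run on simulated counts with the same dispersion for every gene or bin and no effect of the replicate number. The simulation therefore does not cover the differences between replicates described here. DESeq2 1.42.0, limma-voom and the other settings named under the processing alternatives were run beside these.

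The 35 genes, their role groups and the comparison lists (tRNA synthetases, other amino acid genes, other effectors, other ER genes, eIF2 genes, mitochondrial chaperones, macrophage and other cell type markers) were chosen with earlier results of these data known. All members were accounted for, and of each list the genes named were among the 5 called with the largest absolute change. Values per library were given for members called in at least 1 of the 5 gene-level contrasts, for Herpud1 in the control siRNA libraries only. Hspa5 was shown as well, chosen after its values were seen. Symbols came from the GENCODE reference, which named 36345 of 38215 gene IDs, and mm10 positions from the same annotation.

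Groups shared replicate numbers 1 to 3. Deviations from the group means correlated between libraries of the same number in all 18 pairs (0.143 to 0.6, median 0.356). In 36 pairs of different numbers the correlations were -0.523 to 0.345 (median -0.308). Deviations were centred within groups of 3, so positive values for the same number push the others to negative ones, and these are not independent. Replicate 1 was also the deepest library of every group and was sequenced in more runs than the others. Whether run, depth or a pairing of the samples gave these correlations was not tested. The numbers were used as a block from the data and not from a label. The fit with the replicate number as a block was given where it changed a call.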

Additional observations from a re-analysis of the deposited data

Results flagged for a closer look

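The treated Pycr1 libraries lay on opposite sides of the untreated mean in the 2 siRNA backgrounds, with every treated control library above it (13.2, 8.43 and 12.1 against 9.08, 6.702 and 8.73 CPM) and every treated knockdown library below the untreated knockdown mean (1.15, 0.846 and 1.396 against 1.64, 1.67 and 0.893 CPM). Neither LPS difference passed edgeR's test (adjusted p = 0.248 and 0.685), and SF3A1 siRNA with LPS replicate 3 was above the untreated knockdown library of the same number (ratio 1.56). The interaction was -0.79 on the log2 scale and did not pass edgeR's test (adjusted p = 0.466), and in the knockdown libraries the gene was at or below 1.67 CPM.

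The Slc7a11 knockdown libraries lay on opposite sides of the control mean without and with LPS, above it in every untreated library (28.5, 20.7 and 21.4 CPM) and below it in every treated one (193, 187 and 258 CPM). Without LPS the groups overlapped, the difference did not pass edgeR's test (0.25, adjusted p = 0.316), and knockdown replicate 2 was below the control library of the same number (ratio 0.939). The interaction was -0.63 and did not pass edgeR's test (adjusted p = 0.236). Both patterns were noted from the sign of each library against the mean of its control group, which is a description of 3 libraries a group.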

How the results depend on the processing

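The number of members that changed with SF3A1 siRNA stayed within 1.5 times in all settings, at 18 to 22 of 34 without LPS and 19 to 24 with LPS when 1 library was left out (24 and 22 in the full fit), and at 11 to 14 for LPS with control siRNA (14 in the full fit). Called in every setting were 17 of 24 genes without LPS, 16 of 22 with LPS, 9 of 14 for LPS with control siRNA and 3 of 8 for LPS with SF3A1 siRNA (Atf4, Slc3a2 and Slc7a11). LPS with SF3A1 siRNA was the comparison that moved, with 8 members in the full fit, 14 with no filter on low counts, 16 with the replicate block, 15 without replicate 1 of any group (added after seeing the data) and 4 to 9 leaving out 1 library. The interaction gave 0 in the full fit, 1 with the replicate block, 1 without replicate 1 of any group and 0 to 1 leaving out 1 library, each time Ppp1r15a. Members with changed exon usage were 4 without LPS (2 with limma-voom, 1 to 3 leaving out 1 library), 1 with LPS (2 with the replicate block, 0 to 1 leaving out 1 knockdown library) and 0 for LPS with control siRNA (1 with the replicate block). The shares of all genes without LPS were 6.16% (5.38% with limma-voom, 3.61% to 4.91% leaving out 1 library). With LPS they were 5.03% (10.4% with the replicate block, 3.18% to 5.74% leaving out 1 knockdown library). Only 2 control libraries with LPS had exon counts, and leaving out either left 1 in that arm, so no share is given for those fits. For LPS with control siRNA they were 0.462% (1.22% with the replicate block). Among values called in either fit, 1 changed sign, that of Ddit4 for LPS with control siRNA, from 0.27 to -0.72 without replicate 1 of any group, where it passed the test as a fall (-0.55 to 0.58 leaving out 1 library, -0.55 without control siRNA with LPS replicate 1). Of 2550 member values under alternatives, 2373 stayed on their side of the threshold, 90 lost the call and 86 gained one, and 139 values of 26 genes, called in neither fit, changed sign, and the cause was not tested. The block changed no call other than those given in the text. Over all genes it moved LPS with SF3A1 siRNA from 1598 to 3115 genes and the interaction from 520 to 1756 (DESeq2 965, no filter 930). Depth limits Vldlr, Pycr1, Trib3, Chac1 and Aldh1l2 in the knockdown libraries, where few reads were counted.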

Other observations

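LPS with control siRNA also raised genes of the comparison lists. Of 20 tRNA synthetases 7 were higher and 0 lower, of 11 other stress effectors 8 were higher and 0 lower, and of 15 other amino acid genes 1 was higher and 4 lower, where 13.8% of all tested genes were higher and 18.3% lower, the higher one being Cth, the cystathionine gamma-lyase gene (2.67 on the log2 scale, adjusted p = 4.46e-05, edgeR's quasi-likelihood test). With SF3A1 siRNA the same lists had 1, 5 and 1 genes higher and 0 lower, where 6.6% of all tested genes were higher and 4.06% lower. The interaction of siRNA and LPS was not called for any tRNA synthetase or other amino acid gene.

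Replicate 1 was the highest library of its group for 15, 22, 23 and 23 of the 34 members in untreated and LPS-treated control cells and in untreated and LPS-treated knockdown cells, in that order, which is 44.1%, 64.7%, 67.6% and 67.6%, against 37.7% to 41.7% of all tested genes. The genes that stood out in this way in the LPS groups included Ddit3, Trib3, Chac1, Herpud1 and Hspa5. The part of sequencing run and depth in this was not tested.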
